A study of Mus musculus with 37 samples.

Results

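The 10 genes described here, Ptgds, Bmp6, Slc6a13, Slc13a4, Slc22a6, Dcn, Lum, Ogn, Igf2 and Aldh1a2, are markers of meningeal fibroblasts, the connective tissue cells of the membranes around the brain. They were chosen by name from the 55536 genes of a cortex count table, to follow how much meningeal RNA each cortex library held. They and the marker lists below were chosen with earlier results of these data known. Counts of calls beside the share of all genes are therefore a description and not a test of these lists. All 10 were found in the table, and all 10 were among the 21248 genes that passed the filter on low counts. RNA had been taken with Trizol from brain cortex of 10-month-old mice, and directional libraries were made from total RNA. The 21 libraries came from 5 samples of the genotype TMEM106B-/-TDP-43Q331K (called the combined genotype below), 5 of TMEM106B-/-, 6 of TDP-43Q331K and 5 of wild type (WT). TMEM106B is a membrane protein of late endosomes and lysosomes, and TDP-43Q331K is a disease-linked form of the RNA-binding protein TDP-43. The labels name no treatment and no further allele. They do not say how either allele was made, whether each library is a separate animal, or whether the meninges were removed at dissection. The p-values therefore measure the spread between these samples, which may in part be technical.

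The meninges are built of fibroblasts in the dura, the arachnoid and the pia, with vessels and resident macrophages among them. Arachnoid and pial fibroblasts are known for solute carriers that move organic anions, amino acid transmitters and sulfate, for collagens and small leucine-rich proteoglycans, and for secreted signals such as retinoic acid, bone morphogenetic proteins and insulin-like growth factor 2. Neurons and glia of adult cortex express few of these genes at high levels, so their RNA is widely used as a sign of meninges in a brain sample. Exceptions are known: oligodendrocytes and choroid plexus epithelium also make Ptgds, and choroid plexus makes Igf2. In bulk RNA, more cells of a type and more RNA per cell cannot be told apart.

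Promoters of Ogn and Slc13a4 are shown because these 2 of the 10 genes had the largest differences between TMEM106B-/- and WT and the widest spread between libraries, and moved together (r = 0.95). Each sequence holds the 250 bases before the transcription start in RefSeq (GRCm38.p6), 5′ to 3′ on the strand of the gene. Capitals mark matches to 4 motifs searched on both strands. The motifs were the TATA box TATAAA, the forkhead factor motif GTAAACA, the TEAD factor motif GGAATG and the GC box GGGCGG.
Ogn, chr13:49607765-49608014, plus strand: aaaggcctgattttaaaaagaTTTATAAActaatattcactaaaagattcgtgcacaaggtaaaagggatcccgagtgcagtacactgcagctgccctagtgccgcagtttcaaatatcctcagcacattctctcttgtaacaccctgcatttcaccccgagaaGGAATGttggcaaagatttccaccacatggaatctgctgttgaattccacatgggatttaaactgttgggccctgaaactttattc
Slc13a4, chr6:35308127-35308376, minus strand: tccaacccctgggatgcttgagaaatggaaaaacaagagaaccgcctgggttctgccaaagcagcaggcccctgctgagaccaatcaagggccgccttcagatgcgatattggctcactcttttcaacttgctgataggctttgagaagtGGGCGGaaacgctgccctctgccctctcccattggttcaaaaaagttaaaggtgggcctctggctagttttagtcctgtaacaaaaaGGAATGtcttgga
The Ogn window held GGAATG 86 bases before the start and a palindromic TTTATAAA, in which TATAAA lies on both strands and overlaps itself. The Slc13a4 window held GGAATG 13 bases and GGGCGG 100 bases before the start. Of 32851 promoter windows of this length, 12.4% held the TATA box, 3.17% the forkhead motif, 12.6% the TEAD motif and 32.7% the GC box. RefSeq entries were matched for 8 of the 10 genes, of which none held the forkhead motif and Slc6a13, Slc22a6 and Igf2 also held the TEAD motif. Slc6a13 had 3 entries and Igf2 had 4, so each had more than 1 window in which to match. The shares above are per window and cannot be set against a count of genes. A match is a description of these letters and says nothing of binding.

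Libraries held 28.8 to 46.3 M counts (M, 1000000). Tmem106b RNA did not fall with the label: it averaged 200 ± 13.5 counts per 1000000 (CPM) in the combined genotype, 184 ± 6.66 in TMEM106B-/-, 181 ± 6.79 in TDP-43Q331K and 188 ± 4.69 in WT (SD, n = 5, 5, 6 and 5). Genotype names below therefore stand for libraries so labelled, and every direction drawn from them rests on the labels. Tardbp, the gene of TDP-43, averaged 158 ± 5.85 CPM in the combined genotype, 151 ± 12.2 in TMEM106B-/-, 178 ± 5.78 in TDP-43Q331K and 157 ± 5.44 in WT, so that of the 2 groups labelled Q331K the TDP-43Q331K libraries alone lay above WT, and its RNA does not check the Q331K labels either. Markers of excitatory cortical neurons, which bear on the tissue label, summed to 4508 to 5865 CPM over all libraries. A pair of libraries stood apart in the 10 genes, WT replicate 1 and TMEM106B-/- replicate 3, both on the low side of their groups. They were picked out after their values were seen, and where the count of calls in a list against WT differed without them, that count is given too.

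Ptgds, prostaglandin D2 synthase and also a lipid carrier of cerebrospinal fluid, was by far the most abundant of the 10 (ENSMUSG00000015090, chr2:25466709-25470046, minus strand, GRCm38). It measured 583, 776, 703, 538 and 381 CPM in the 5 combined-genotype libraries and 811, 621, 240.0, 539 and 885 CPM in the 5 TMEM106B-/- libraries. In the 6 TDP-43Q331K libraries it ran between 154 and 348 CPM with a median of 261, and in the 5 WT libraries it was 100.2, 283, 186, 239.95 and 314 CPM. Every combined-genotype library lay above every WT and every TDP-43Q331K library, and 1 TMEM106B-/- library, replicate 3, lay inside the WT range. The combined genotype was higher than WT by 1.41 ± 0.34 on the log2 scale (edgeR adjusted p = 0.0279), and TMEM106B-/- was higher than WT by 1.46 ± 0.34 (edgeR adjusted p = 0.0180).

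Per kilobase of exon the order of levels in WT was set by Ptgds, at 136 ± 51.3 RPKM (counts per kilobase of exon and per 1000000 counts, SD, n = 5). Ogn followed at 1.60 ± 0.947, Slc6a13 at 1.52 ± 0.670, Aldh1a2 at 1.32 ± 0.653, Slc13a4 at 1.25 ± 0.661, Bmp6 at 1.18 ± 0.430 and Slc22a6 at 1.06 ± 0.516 RPKM. These 6 genes did not differ from their neighbours in the order beyond the spread between libraries. Dcn came next at 0.783 ± 0.377 RPKM, within the spread of Slc22a6 and of Lum at 0.485 ± 0.178 RPKM, and Igf2 was lowest at 0.138 ± 0.0435 RPKM, below Lum by more than both SDs. Igf2 is the least certain level, because 62.8% of its exon bases are shared with the same-strand annotated gene Gm49394, which had 0 counts in every library. Bmp6 shares 5.7% of its exon bases with the opposite-strand gene Txndc5, and the strand setting of the counting is not given in the sources used here.

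**Figure D1:**
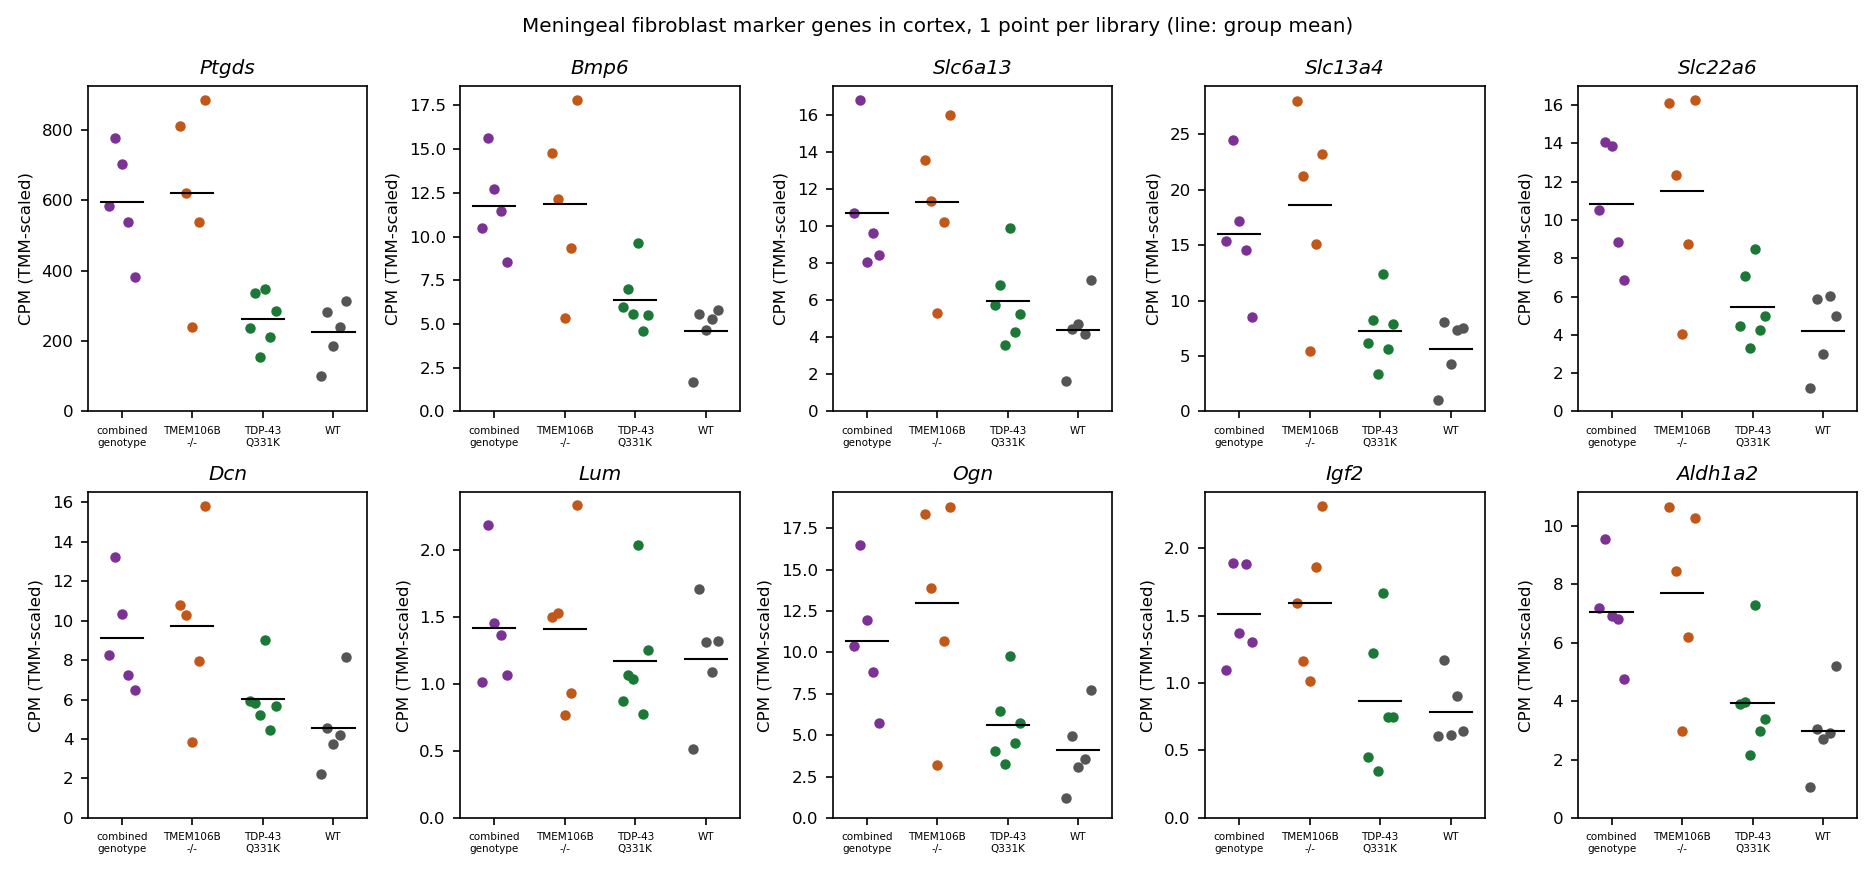
Level of each of the 10 genes in CPM (TMM-scaled, linear axes from 0), 1 point per library, with the group mean as a line. Groups run from the combined genotype and TMEM106B-/- to TDP-43Q331K and WT; the lowest TMEM106B-/- point in all 10 panels is replicate 3 (Ptgds 240.0 CPM), and the lowest WT point in all 10 panels is replicate 1 (Ptgds 100.2 CPM).

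The 3 solute carriers rose in libraries labelled TMEM106B-/-, and 1 of them, Slc6a13, also in the combined genotype. Slc13a4, a sodium-coupled sulfate carrier (ENSMUSG00000029843, chr6:35267957-35308131, minus strand), measured 15.4, 24.5, 17.2, 14.6 and 8.5 CPM in the combined genotype and 28.0, 21.2, 5.46, 15.1 and 23.2 CPM in TMEM106B-/-. It ran from 3.40 to 12.4 CPM in TDP-43Q331K (median 7.0) and was 1.01, 8.06, 4.25, 7.36 and 7.53 CPM in WT. The combined genotype did not overlap WT, and its lowest library, 8.5 CPM, sat just above the highest WT library, 8.06 CPM. The difference from WT was 1.51 ± 0.47 in the combined genotype (edgeR adjusted p = 0.0702) and 1.73 ± 0.46 in TMEM106B-/- (edgeR adjusted p = 0.0364), the largest log2 difference among the 10 genes in both. Slc13a4 also had the widest spread of the 10, with a biological coefficient of variation of 0.512 against a median of 0.105 over all genes tested.

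Slc6a13, the GABA and taurine carrier GAT2 (ENSMUSG00000030108, chr6:121300227-121337733, plus strand), measured 10.7, 16.8, 8.06, 9.64 and 8.45 CPM in the combined genotype and 13.6, 11.4, 5.32, 10.3 and 16.0 CPM in TMEM106B-/-. It ran from 3.58 to 9.90 CPM in TDP-43Q331K (median 5.53) and was 1.64, 4.43, 4.71, 4.19 and 7.11 CPM in WT. It was higher than WT in the combined genotype by 1.28 ± 0.35 (edgeR adjusted p = 0.0408) and in TMEM106B-/- by 1.37 ± 0.34 (edgeR adjusted p = 0.0253). Slc22a6, the organic anion transporter OAT1 (ENSMUSG00000024650, chr19:8618039-8628299, plus strand), ran from 6.86 to 14.1 CPM in the combined genotype, 4.03 to 16.2 in TMEM106B-/-, 3.32 to 8.48 in TDP-43Q331K and 1.24 to 6.03 in WT. It rose in TMEM106B-/- (1.46 ± 0.40, edgeR adjusted p = 0.0389); in the combined genotype, whose libraries all lay above those of WT, the difference was 1.36 ± 0.40 (edgeR adjusted p = 0.0559). Slc13a4 and Slc6a13 lie on chromosome 6 with Tmem106b, at 22.2 and 108.2 Mb from it.

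The secreted signals and the enzyme of a signal gave a similar picture, with Bmp6 the most secure call. Bmp6, a bone morphogenetic protein (ENSMUSG00000039004, chr13:38345107-38500302, plus strand), measured 10.5, 15.6, 12.7, 11.5 and 8.53 CPM in the combined genotype and 14.8, 12.1, 5.32, 9.37 and 17.8 CPM in TMEM106B-/-. It ran from 4.58 to 9.62 CPM in TDP-43Q331K (median 5.76) and was 1.70, 5.55, 4.68, 5.31 and 5.79 CPM in WT. No combined-genotype library overlapped WT, and TMEM106B-/- replicate 3 was the only library of its group inside the WT range. Bmp6 rose by 1.35 ± 0.31 in the combined genotype (edgeR adjusted p = 0.0207) and by 1.38 ± 0.31 in TMEM106B-/- (edgeR adjusted p = 0.0138), both against WT. It passed under all 27 alternatives in the combined genotype and under 26 of 27 in TMEM106B-/-, where the adjusted p ran from 0.000994 to 0.0716 over the alternatives.

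Aldh1a2, a retinaldehyde dehydrogenase that makes retinoic acid (ENSMUSG00000013584, chr9:71215789-71296243, plus strand), ran from 4.77 to 9.56 CPM in the combined genotype, 2.98 to 10.7 in TMEM106B-/-, 2.16 to 7.31 in TDP-43Q331K and 1.06 to 5.21 in WT. It rose in TMEM106B-/- (1.39 ± 0.37, edgeR adjusted p = 0.0365) and differed from WT by 1.24 ± 0.38 in the combined genotype (edgeR adjusted p = 0.0630). Igf2, insulin-like growth factor 2 (ENSMUSG00000048583, chr7:142650766-142666816, minus strand), had 12 to 107 counts per library and the lowest level of the 10 per kilobase of exon in WT. It measured 1.10, 1.89, 1.37, 1.88 and 1.30 CPM in the combined genotype, 1.60, 1.16, 1.02, 1.86 and 2.31 CPM in TMEM106B-/- and 0.604, 1.17, 0.615, 0.905 and 0.644 CPM in WT. In TDP-43Q331K it ran from 0.346 to 1.67 CPM, with a median of 0.751. Only the highest WT library, replicate 2, reached into the range of the combined genotype, yet Igf2 passed in neither comparison with WT, at 0.92 ± 0.32 (edgeR adjusted p = 0.0986) in the combined genotype and 1.02 ± 0.32 (edgeR adjusted p = 0.0674) in TMEM106B-/-.

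The 3 small leucine-rich proteoglycans, which bind collagen fibrils, gave 1 call, for Ogn in TMEM106B-/-. Ogn, osteoglycin (ENSMUSG00000021390, chr13:49608046-49624501, plus strand), measured 10.4, 16.5, 11.9, 8.83 and 5.74 CPM in the combined genotype and 18.4, 13.9, 3.22, 10.7 and 18.8 CPM in TMEM106B-/-. It ran from 3.23 to 9.78 CPM in TDP-43Q331K (median 5.14) and was 1.21, 4.97, 3.05, 3.59 and 7.72 CPM in WT. TMEM106B-/- was higher than WT by 1.68 ± 0.46 (edgeR adjusted p = 0.0403), while the combined genotype, with 1 library inside the WT range, differed by 1.38 ± 0.46 (edgeR adjusted p = 0.0909). Dcn, decorin (ENSMUSG00000019929, chr10:97479609-97518143, plus strand), ran from 6.47 to 13.2 CPM in the combined genotype, 3.85 to 15.8 in TMEM106B-/-, 4.48 to 9.0 in TDP-43Q331K and 2.21 to 8.17 in WT. Its differences from WT, 1.0 ± 0.34 (edgeR adjusted p = 0.0924) in the combined genotype and 1.11 ± 0.34 (edgeR adjusted p = 0.0648) in TMEM106B-/-, missed the threshold.

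Lum, lumican (ENSMUSG00000036446, chr10:97565128-97572703, plus strand), lies 47.0 kb from Dcn and had the smallest differences of the 10; its differences are given outside the rule for printed fold changes, after its values were seen. It measured 1.01, 2.19, 1.45, 1.36 and 1.07 CPM in the combined genotype and 1.5, 1.53, 0.770, 0.932 and 2.34 CPM in TMEM106B-/-. It ran from 0.777 to 2.04 CPM in TDP-43Q331K (median 1.05) and was 0.518, 1.71, 1.31, 1.09 and 1.32 CPM in WT. The 4 groups overlapped throughout, at 18 to 108 counts per library. Lum differed from WT by 0.25 ± 0.32 in the combined genotype (edgeR adjusted p = 0.702) and by 0.27 ± 0.31 in TMEM106B-/- (edgeR adjusted p = 0.711). Without TMEM106B-/- replicate 5 its difference in TMEM106B-/- was -0.0034, with the sign turned.

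Counted over the 10 genes, 3 rose in the combined genotype against WT (Ptgds, Bmp6 and Slc6a13) and none fell, with 4.89% of all genes tested called, 2.53% higher and 2.36% lower. In TMEM106B-/- against WT, 7 rose (these 3, Slc13a4, Aldh1a2, Slc22a6 and Ogn) and none fell, with 5.16% of all genes called, 2.78% higher and 2.39% lower. The median log2 difference of the 10 was 1.32 in the combined genotype and 1.38 in TMEM106B-/-, beside medians of 0.01 over all genes tested in both comparisons. In the combined genotype 5 of the 10 (Ptgds, Bmp6, Slc6a13, Slc13a4 and Slc22a6) had every library above every WT library, against 2.96% of all genes (2.96% had every library below), and in TMEM106B-/- 0 did, against 2.5% of all genes (3.39% below). The count of 3 became 1 without WT replicate 1, 3 or 4 or combined-genotype replicate 2, 3 or 4. It became 5 without WT replicate 5, 7 without TMEM106B-/- replicate 3 and 6 without combined-genotype replicate 5. Over these refits 1.96% to 7.17% of all genes were called. The count of 7 became 2, 4, 1 and 3 without WT replicate 1, 2, 3 and 4. It became 1, 3 and 1 without TMEM106B-/- replicate 1, 2 and 5, and 1 when only TMEM106B-/- and WT entered the fit. Those fits called 3.1% to 4.17% of all genes. In the other direction, it became 9 without TMEM106B-/- replicate 3, with 6.49% of all genes called, and 9 with DESeq2, with 6.96% called. It became 8 without TDP-43Q331K replicate 3, with 5.04% called, or replicate 4, with 5.08% called.

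**Figure D2:**
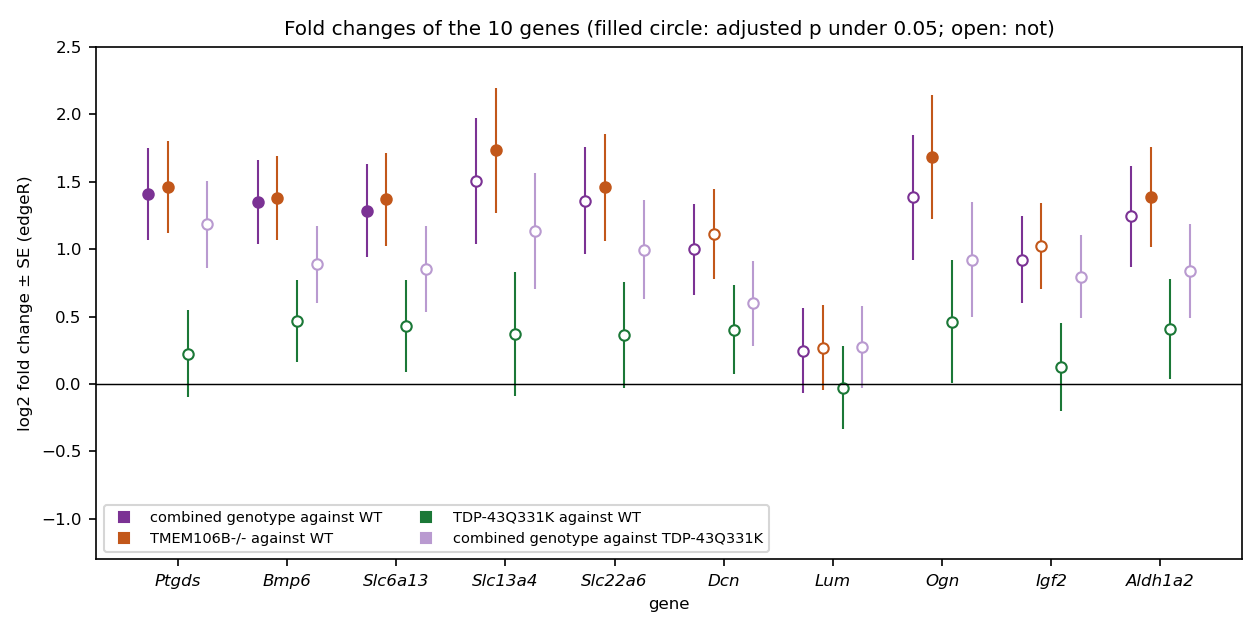
Log2 fold change ± SE of each gene from the edgeR fit, for 4 comparisons; filled circles passed an adjusted p of 0.05 and open circles did not. The combined genotype and TMEM106B-/- against WT lie between 0.92 and 1.73 for 9 genes and near 0.25 for Lum, and TDP-43Q331K against WT lies between -0.03 and 0.47.

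Libraries labelled TDP-43Q331K alone gave no call against WT. In TDP-43Q331K against WT 0 of the 10 passed with edgeR, 0 had an unadjusted p under 0.05 and 0 passed with DESeq2, with 0% of all genes called by edgeR, 4.88% at an unadjusted p under 0.05 and 0.0471% called by DESeq2. No gene of the 10 was free of overlap between these groups, against 0.353% of all genes with every TDP-43Q331K library above and 0.499% below. The 10 differences from WT ran from -0.03 ± 0.31 for Lum to 0.47 ± 0.31 for Bmp6. Their median of 0.39 was 0.16 without WT replicate 1. In the combined genotype against TMEM106B-/- 0 of the 10 passed with edgeR, 0 had an unadjusted p under 0.05 and 0 passed with DESeq2, with 0% of all genes called and 4.96% at an unadjusted p under 0.05. Groups overlapped for all 10, against 0.202% of all genes with every library above and 0.184% below. Differences ran from -0.30 ± 0.43 for Ogn to -0.02 ± 0.31 for Lum, with errors wide enough for a change in either direction.

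On the Q331K background, libraries labelled as lacking TMEM106B differed in the same direction, with no call. In the combined genotype against TDP-43Q331K 0 of the 10 passed with edgeR, with 1.4% of all genes called, 0.8% higher and 0.602% lower, while 8 of the 10 had an unadjusted p under 0.05, as did 18.1% of all genes, and 1, Ptgds, passed with DESeq2, which called 3.91% of all genes. The median difference was 0.87, and the largest was that of Ptgds at 1.18 ± 0.32 (edgeR adjusted p = 0.0700). Ptgds was also the only one of the 10 with no overlap between these groups, against 1.21% of all genes with every library above and 0.993% below. The count was 1 without TMEM106B-/- replicate 3, with 1.63% of all genes called, and 1 without combined-genotype replicate 5, with 5.15%. It was 2 without both libraries that stood apart, a fit that called 1.63% of all genes. A test of whether the difference by TMEM106B label changed between backgrounds (interaction) gave 0 of 10 with edgeR and 0 with DESeq2. At an unadjusted p under 0.05 it gave 0 of 10, beside 4.57% of all genes, and edgeR called 0% of all genes. Values ran from -0.76 ± 0.63 for Ogn to 0.01 ± 0.44 for Lum.

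Averaged over both backgrounds, a contrast added after the data were seen, the 10 libraries labelled as lacking TMEM106B were compared with the 11 others. Here 9 of the 10 rose, all except Lum, with 13.7% of all genes called, 7.7% higher and 5.96% lower. The differences of the 9 ran from 0.85 ± 0.23 for Dcn to 1.43 ± 0.32 for Slc13a4, with edgeR adjusted p of 0.00139 for Ptgds to 0.0184 for Dcn. Lum differed by 0.27 ± 0.22 (edgeR adjusted p = 0.447). The count of 9 was returned by all 26 alternatives to this contrast, which called 6.22% to 15.9% of all genes. A test of any difference among the 4 genotypes called 5 of the 10 (Ptgds, Bmp6, Slc6a13, Slc13a4 and Slc22a6), with 5.9% of all genes called.

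The level of the 10 genes varied widely from library to library within each genotype. As a description, the mean log2 CPM of the 10, set to 0 at the WT mean, was 1.26 ± 0.38 in the combined genotype, 1.28 ± 0.72 in TMEM106B-/-, 0.39 ± 0.48 in TDP-43Q331K and 0.00 ± 0.73 in WT (SD, n = 5, 5, 6 and 5). TMEM106B-/- replicate 3 stood at 0.11 while the other 4 libraries of its group ran from 1.15 to 1.94. WT replicate 1 stood at -1.23 while its other 4 ran from -0.06 to 0.61. All 5 combined-genotype libraries lay above the highest WT library, at 0.75 or more, and the highest TDP-43Q331K library, replicate 4 at 1.17, lay among them. The biological coefficient of variation of the 10 ran from 0.319 (Igf2) to 0.512 (Slc13a4), which placed them between the 95.5 and the 99.2 percentile of the genes tested. Without the pair of libraries that stood apart, 4 of the 10 passed in the combined genotype, with 4.05% of all genes called in that fit, and 8 in TMEM106B-/-, with 5.56% called, both against WT. Over both backgrounds 9 passed without them, with 14.6% of all genes called.

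Libraries that were high in one of the genes were high in the others. Each gene's log2 CPM was taken as its deviation from the mean of its genotype and compared with each of the other 9 over the 21 libraries. Over the 45 pairs, Pearson's r ran from 0.44 to 0.97 with a median of 0.90, and all 45 passed a permutation test within genotypes after Benjamini-Hochberg adjustment over the 45 (100000 permutations, smallest possible p 1e-05). Pairs of other genes were not put to this test. How many of them would pass is therefore not known, and the 45 are a description of these genes. The closest pair was Ptgds and Ogn (r = 0.97, rho = 0.96), followed by Slc13a4 and Slc22a6 (r = 0.97, rho = 0.94). The 36 pairs without Igf2 had r of 0.80 to 0.97, and the 9 pairs with Igf2 had r of 0.44 to 0.63. The weakest pair was Dcn and Igf2, with r = 0.44 (adjusted permutation p = 0.0350) and rho = 0.42 (adjusted permutation p = 0.0660).

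Lum, which passed in no comparison of genotypes, followed the other genes within them. Its 8 pairs with the genes other than Igf2 had r of 0.80 to 0.90, the closest being Bmp6 (r = 0.90, rho = 0.88). Without the 2 libraries farthest from the median of each pair's first gene, the median r of all 45 pairs was 0.81, with 0.68 to 0.94 for the 36 pairs without Igf2 and 0.37 to 0.64 for the 9 with it. Without WT replicate 1 and TMEM106B-/- replicate 3 the median was also 0.81, and 43 of the 45 pairs passed. The genes of a library share tissue piece and preparation, so the pairs are not independent of each other.

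**Figure D3:**
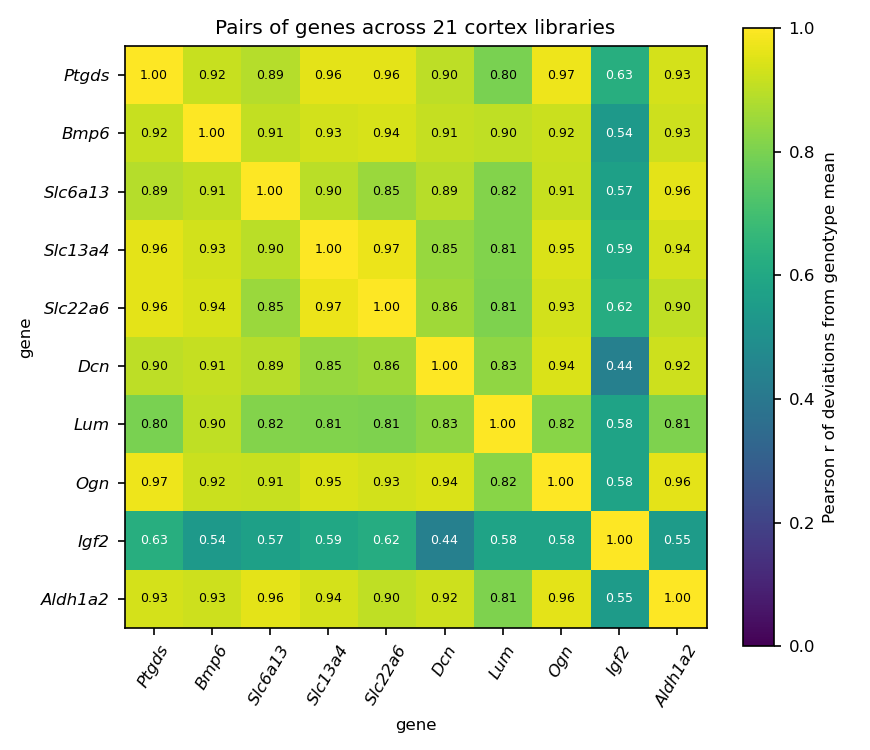
Pearson's r of the deviations from the genotype mean (log2 CPM) for each pair of the 10 genes over 21 cortex libraries; the colour scale runs from 0 to 1. The row and column of Igf2 hold values of 0.44 to 0.63, and all other pairs lie between 0.80 and 0.97.

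Each gene was also set against the mean of the other 9 in the same library, a ratio that does not change when all 10 rise or fall by the same factor. This test was added after the data were seen and covered 50 comparisons (10 genes in 5 comparisons). With two-sided exact permutation tests, 0 of the 50 passed after Benjamini-Hochberg adjustment, the smallest adjusted p being 0.0992, and 9 had an unadjusted p under 0.05. With so few libraries, a ratio at its smallest possible p could pass only if several others had similarly small p-values. The 0 of 50 therefore does not show that the ratios were unchanged. The largest shifts were those of Lum. Its log2 ratio to the others averaged -3.19 ± 0.22 in the combined genotype, -3.27 ± 0.35 in TMEM106B-/-, -2.53 ± 0.32 in TDP-43Q331K and -2.11 ± 0.33 in WT (SD, n = 5, 5, 6 and 5).

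Every library of the combined genotype and of TMEM106B-/- had a lower Lum ratio than every WT library, by -1.09 and -1.16 on average (exact permutation p = 0.00794 in both, the smallest that 5 against 5 libraries can give). The combined genotype also lay wholly below TDP-43Q331K, by -0.66 (exact permutation p = 0.00433, the smallest that 5 against 6 can give). For Ptgds the ratio was higher in every combined-genotype library than in every TDP-43Q331K library, by 0.36 (exact permutation p = 0.00433). All of these have an adjusted p of 0.0992. The ratios of Slc6a13 and Aldh1a2 differed from WT by at most 0.13 in the 3 comparisons with it, with SDs of the same order.

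**Figure D4:**
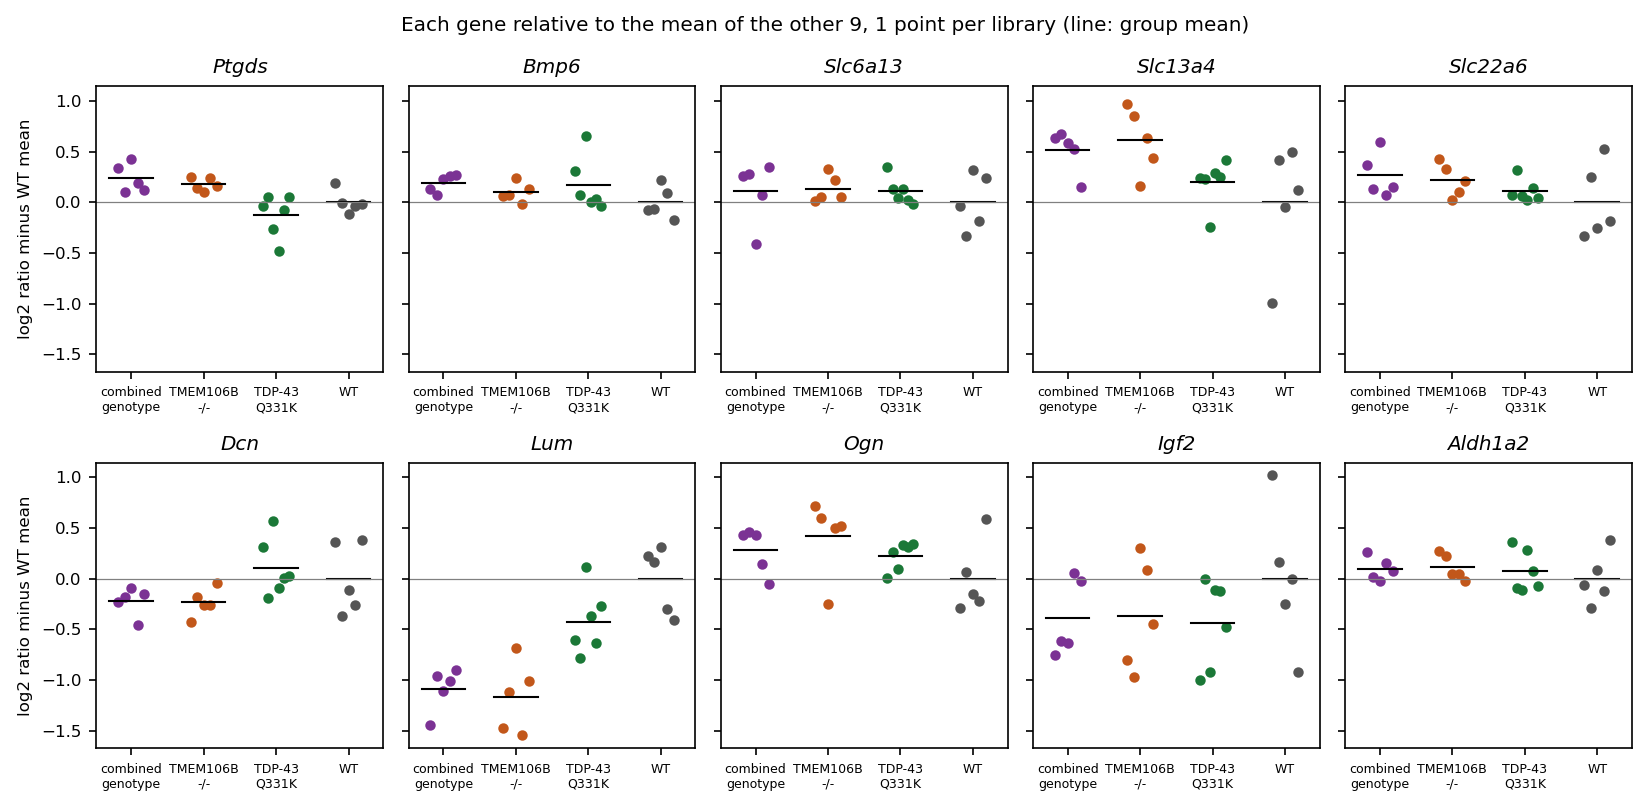
Log2 ratio of each gene to the mean of the other 9 in the same library, minus the WT mean, 1 point per library with the group mean as a line. In the Lum panel the 5 combined-genotype and 5 TMEM106B-/- points lie below all 5 WT points, at group means of -1.09 and -1.16. No panel passed after adjustment over 50 tests, which a single ratio could not do alone with these numbers of libraries.

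The genes outside the 10 whose deviations were most like the mean deviation of the 10 are named here as a description over 21 libraries that share tissue and depth. Myoc, which encodes the secreted protein myocilin, was closest (r = 0.97), followed by Serping1, the C1 esterase inhibitor (0.97), Aox3, an aldehyde oxidase (0.96), Aebp1, a collagen-binding protein (0.96), and Slc6a20a, a proline carrier (0.96). Next were the transcription factor genes Alx4 (0.96) and Zic2 (0.95), the collagen gene Col1a2 (0.95), the gap junction gene Gjb2 (0.95) and the dicarboxylate carrier gene Slc13a3 (0.95). Without WT replicate 1 and TMEM106B-/- replicate 3 their r was 0.90 to 0.94. Each of the 10 is itself part of that mean, which raises its r, so its value cannot be set against those of the outside genes. Among the 10, Ogn was highest (0.97), Lum was at 0.89 and Igf2 was at 0.66.

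Of these genes Alx4 had the largest differences, with 3.76 ± 1.70 CPM in the combined genotype, 4.24 ± 2.08 in TMEM106B-/-, 1.55 ± 0.697 in TDP-43Q331K and 1.05 ± 0.474 in WT (SD, n = 5, 5, 6 and 5). It rose by 1.83 ± 0.44 in the combined genotype (edgeR adjusted p = 0.0265) and by 2.03 ± 0.44 in TMEM106B-/- (edgeR adjusted p = 0.0103). Zic2 averaged 19.8 ± 2.28 CPM in the combined genotype, 20.8 ± 5.36 in TMEM106B-/-, 12.98 ± 2.43 in TDP-43Q331K and 11.2 ± 2.09 in WT. It rose by 0.81 ± 0.18 in the combined genotype (edgeR adjusted p = 0.0149) and by 0.90 ± 0.18 in TMEM106B-/- (edgeR adjusted p = 0.00510).

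A wider list of 32 other meningeal fibroblast and arachnoid genes, likewise chosen with earlier results known, was also counted, without any of the 10. In the combined genotype against WT, 7 of the 32 rose and 0 fell (median 0.86), and in TMEM106B-/- against WT 17 rose and 0 fell (median 1.0). Beside these and the list counts below, 2.53% of all genes tested were called higher and 2.36% lower in the combined genotype against WT. The shares in TMEM106B-/- against WT were 2.78% higher and 2.39% lower. Crabp2, a retinoic acid carrier, rose by 1.55 ± 0.38 in the combined genotype (edgeR adjusted p = 0.0236) and by 1.72 ± 0.37 in TMEM106B-/- (edgeR adjusted p = 0.00881). Slc6a20a rose by 1.14 ± 0.28 in the combined genotype (edgeR adjusted p = 0.0290) and by 1.23 ± 0.28 in TMEM106B-/- (edgeR adjusted p = 0.0154). Without the pair of libraries that stood apart, 7 of the 32 rose in the combined genotype and 24 in TMEM106B-/-. Here and below, the fit without that pair called 4.05% of all genes in the combined genotype and 5.56% in TMEM106B-/-, both against WT. In TDP-43Q331K against WT 0 of the 32 passed with edgeR, at a median of 0.13.

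Matrix genes were counted in lists that hold some of the 10. Of 10 tested small leucine-rich proteoglycans, a list with Dcn, Lum and Ogn, 0 passed in the combined genotype against WT (median 0.63) and 3 rose in TMEM106B-/- (median 0.67). Those were Bgn (biglycan, 1.01 ± 0.27, edgeR adjusted p = 0.0343), Fmod (fibromodulin, 1.54 ± 0.42, edgeR adjusted p = 0.0403) and Ogn. Of 18 collagen and basement membrane genes 1 rose in the combined genotype, Nid1 (nidogen, 0.80 ± 0.21, edgeR adjusted p = 0.0352), and 6 rose in TMEM106B-/-, among them Nid1 (0.91 ± 0.21, edgeR adjusted p = 0.0145), Col3a1 (1.71 ± 0.41, edgeR adjusted p = 0.0165) and Col1a1 (1.76 ± 0.41, edgeR adjusted p = 0.0175). None of either list fell in these comparisons. Without the pair of libraries that stood apart, 1 proteoglycan and 2 collagen list genes rose in the combined genotype, and 4 and 5 rose in TMEM106B-/-.

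Around the secreted signals most pathway genes did not pass. Of 16 tested retinoic acid genes, a list with Aldh1a2, 3 rose in the combined genotype against WT (Dhrs3, Crabp2 and Cyp26b1) and 3 in TMEM106B-/- (Crabp2, Aldh1a2 and Cyp26b1), with medians of 0.05 and 0.14. Cyp26b1, which degrades retinoic acid, rose by 1.09 ± 0.31 in the combined genotype (edgeR adjusted p = 0.0454) and by 1.10 ± 0.30 in TMEM106B-/- (edgeR adjusted p = 0.0400). Of 22 BMP pathway genes, a list with Bmp6, 2 rose in the combined genotype (Bmp6 and Bmp7) and 4 in TMEM106B-/- (Bmp7, Bmp6, Smad6 and Bmp5), with medians of 0.10 and 0.09. The ligand gene Bmp7 rose by 0.80 ± 0.20 in the combined genotype (edgeR adjusted p = 0.0298) and by 0.92 ± 0.20 in TMEM106B-/- (edgeR adjusted p = 0.00979).

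Of 14 tested genes of the insulin-like growth factor axis, a list with Igf2, 1 rose in the combined genotype (Igf1, 0.44 ± 0.09, edgeR adjusted p = 0.0125) and 3 in TMEM106B-/- (H19, Igfbp2 and Igf1), with medians of 0.16 and 0.11. H19, the imprinted non-coding RNA beside Igf2, had 1 to 22 counts per library in the combined genotype, 10 to 25 in TMEM106B-/-, 0 to 9 in TDP-43Q331K and 0 to 8 in WT. Its call in TMEM106B-/- (edgeR adjusted p = 0.0221) rests on these low counts. Of 8 genes of prostaglandin D2 synthesis and signalling, 1 rose in each comparison, Ptgds itself, with medians of 0.25 and 0.06. The receptors and the other synthases of that list did not pass in these comparisons, and over both backgrounds the receptor gene Ptgdr also rose (1.32 ± 0.32, edgeR adjusted p = 0.00964). Without the pair of libraries that stood apart, 2 genes of the prostaglandin list, 2 of the insulin-like growth factor list and 5 of the BMP list rose in TMEM106B-/-, and 2 of the retinoic acid list rose in the combined genotype.

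Markers of other cells moved beside the 10 genes. Of 9 genes of border-associated macrophages, which live in the meninges and around vessels, 6 rose in the combined genotype against WT (median 1.09) and 5 in TMEM106B-/- (median 1.12). Their summed level was 36.6 to 46.9 CPM in the combined genotype, 26.6 to 61.2 in TMEM106B-/-, 25.3 to 34.8 in TDP-43Q331K and 20.8 to 27.7 in WT. The lowest TMEM106B-/- library was again replicate 3 and the lowest WT library again replicate 1, as for the 10 genes. Without that pair 5 of the 9 rose in the combined genotype and 6 in TMEM106B-/-. Mrc1, the mannose receptor, rose by 1.29 ± 0.27 in the combined genotype (edgeR adjusted p = 0.0135) and by 1.43 ± 0.27 in TMEM106B-/- (edgeR adjusted p = 0.00401).

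Oligodendrocyte markers moved the other way. All 10 of the list fell in the combined genotype against WT (median -0.98) and all 10 fell in TMEM106B-/- (median -1.27). Their summed level was 1169 to 2622 CPM in the combined genotype, 1080 to 1549 in TMEM106B-/-, 2035 to 3299 in TDP-43Q331K and 3039 to 3436 in WT. The libraries that stood apart in the 10 genes were not the lowest of their groups here. TMEM106B-/- replicate 3 held 1482 CPM, inside its group. WT replicate 1, the lowest WT library in the 10 genes, was the highest WT library here at 3436 CPM. Without this pair of libraries all 10 still fell in both comparisons. Ptgds, which oligodendrocytes also express, was higher in the groups in which their markers were lower. The part of oligodendrocytes in the level of Ptgds was not tested.

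Choroid plexus epithelium, another source of Ptgds and Igf2, had 7 of its 10 listed genes tested. Their summed level was 7.0 to 14.9 CPM in the combined genotype, 6.60 to 13.7 in TMEM106B-/-, 7.01 to 20.7 in TDP-43Q331K and 6.73 to 22.6 in WT. Of these 7 genes 1 rose (Kcnj13) and 0 fell in the combined genotype against WT. In TMEM106B-/- against WT 1 rose (Kcnj13) and 1 fell (Sostdc1). Without the pair of libraries that stood apart, 3 of the 7 fell in TMEM106B-/-, at a median of -1.41 against -0.97 with them. Ttr, its most abundant transcript, ran from 0.0433 to 12.7 CPM over all libraries and averaged 2.18 ± 3.31 CPM in the combined genotype, 1.90 ± 2.55 in TMEM106B-/-, 7.62 ± 3.64 in TDP-43Q331K and 5.38 ± 4.17 in WT. None of the 10 listed genes was at 0 in every library. Of 5 tested ependymal genes 0 passed with edgeR in either comparison with WT, at summed levels of 3.45 to 7.61 CPM in the combined genotype, 2.57 to 4.03 in TMEM106B-/-, 3.67 to 14.0 in TDP-43Q331K and 4.05 to 6.69 in WT.

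Markers of vessels and glia other than oligodendrocytes had smaller differences. Of 10 mural cell genes 1 rose in the combined genotype (median 0.08) and 2 in TMEM106B-/- (median 0.17). Of 10 endothelial genes 1 rose in the combined genotype (median 0.15) and 1 in TMEM106B-/- (median 0.13). Of 8 microglial genes 2 rose in the combined genotype (median 0.09) and 1 in TMEM106B-/- (median 0.13), and of 9 astrocyte genes 2 rose in the combined genotype (median 0.14) and 1 in TMEM106B-/- (median 0.18). With WT replicate 1 and TMEM106B-/- replicate 3 left out, 3 astrocyte genes rose in TMEM106B-/- and 1 microglial gene also fell in the combined genotype. Summed levels of mural genes were 198 to 228 CPM in the combined genotype, 198 to 237 in TMEM106B-/-, 184 to 210.2 in TDP-43Q331K and 179 to 199 in WT.

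Markers of position within the cortical piece were counted in the same way. Of 9 tested deep layer genes 1 fell in the combined genotype (Cplx3) and 2 fell in TMEM106B-/- (Cplx3 and Nxph4), at medians of -0.62 and -0.56. Of 8 upper layer genes 1 rose in the combined genotype (median 0.33) and 3 in TMEM106B-/- (median 0.31). Deep layer genes summed to 173 to 344 CPM in the combined genotype, 161 to 365 in TMEM106B-/-, 288 to 406 in TDP-43Q331K and 330 to 394 in WT. Of 8 genes of excitatory neurons in general 0 passed with edgeR in either comparison (medians 0.04 and 0.06), and of 10 striatal genes 0 passed (medians -0.43 and -0.36). Of 7 hippocampal genes 1 rose in the combined genotype (Fibcd1) and 1 fell in TMEM106B-/- (Prox1), of 6 red blood cell genes 1 fell in each, and of 4 tested skeletal muscle and bone genes 0 passed with edgeR. When WT replicate 1 and TMEM106B-/- replicate 3 were left out, 0 deep layer genes fell in the combined genotype and 3 in TMEM106B-/-, and 0 red blood cell genes fell in TMEM106B-/-.

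Over both backgrounds, the contrast in which 9 of the 10 genes rose, more of the other lists' genes passed as well, beside 13.7% of all genes. Of genes linked to the meninges, 29 of 32 other meningeal genes, 7 of 9 border-associated macrophage genes, 6 of 10 proteoglycans and 8 of 18 collagen list genes rose and none fell. Of the signalling lists, 4 of 16 retinoic acid genes, 6 of 22 BMP genes, 6 of 14 insulin-like growth factor genes and 2 of 8 prostaglandin genes rose, and 1 retinoic acid and 1 BMP gene fell. All 10 oligodendrocyte genes, 5 of 9 deep layer genes, 4 of 10 striatal genes and 2 of 5 ependymal genes fell, among them Drd2 (-1.83 ± 0.50, edgeR adjusted p = 0.0214) and Foxj1 (-0.58 ± 0.18, edgeR adjusted p = 0.0335). Of 7 choroid plexus genes 1 rose and 2 fell, and 4 fell without the pair of libraries that stood apart, which also gave 3 ependymal and 3 striatal genes lower. Upper layer genes rose in 5 of 8 cases, and 3 of 10 mural, 4 of 10 endothelial, 3 of 8 microglial, 4 of 9 astrocyte and 1 of 8 excitatory neuron genes rose. Of the rest, 1 of 7 hippocampal genes rose and 1 fell, 2 of 6 red blood cell genes fell, and 0 of 4 muscle and bone genes passed with edgeR. The part of any of these cell types, or of how the tissue was cut, in the levels of the 10 genes was not tested.

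**Figure D5:**
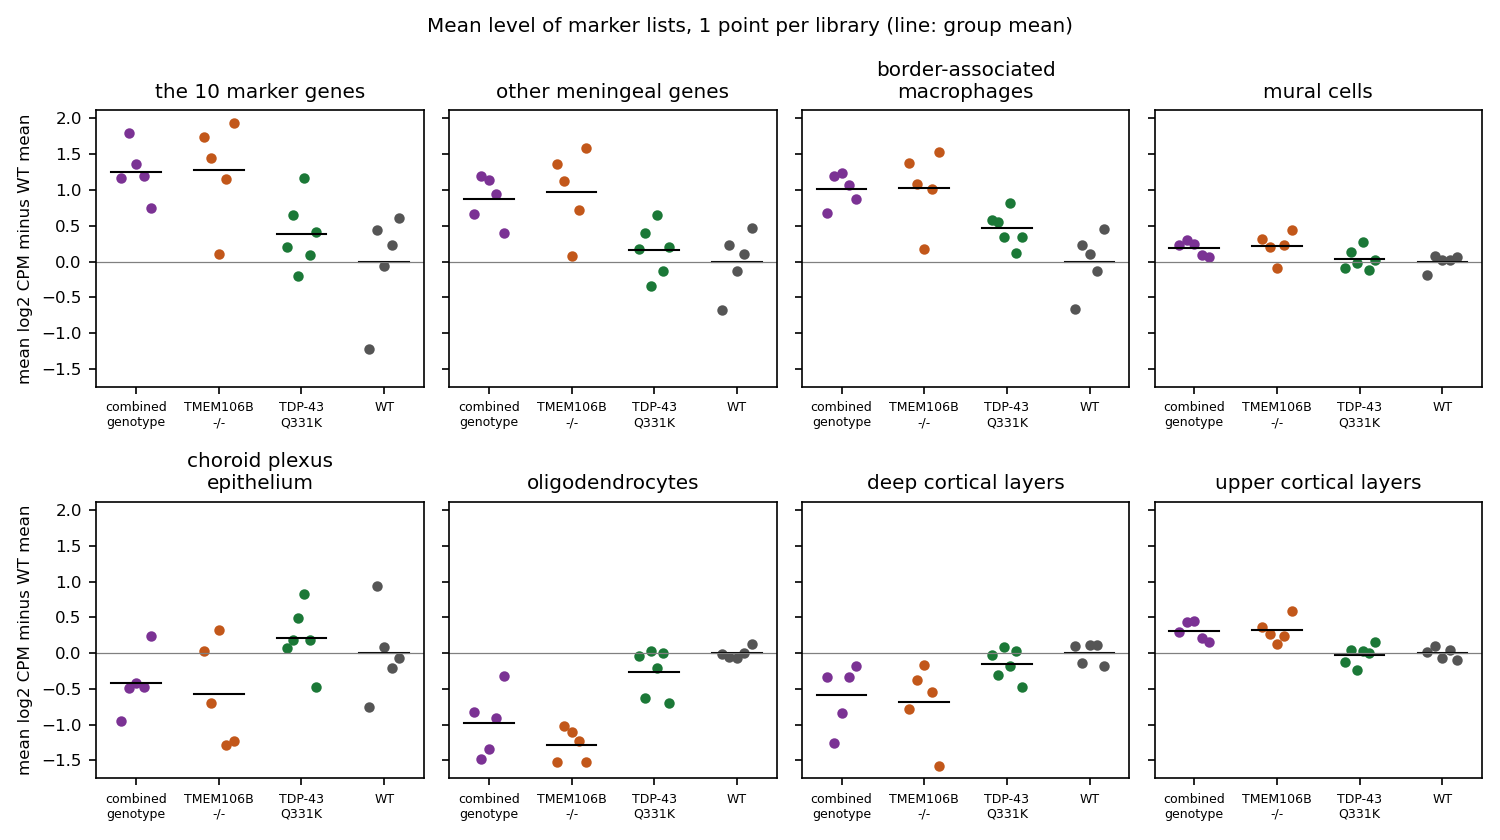
Mean log2 CPM of the 10 genes and of 7 lists of cell type markers, minus the WT mean, 1 point per library with the group mean as a line. The 10 genes and border-associated macrophages are highest in the combined genotype and TMEM106B-/- (group means 1.26 and 1.28 for the 10 genes), with the same low library in TMEM106B-/- and in WT, while oligodendrocyte markers are lowest in those same 2 genotypes.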

How the data were processed

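Cortex RNA was measured in 21 libraries; the series has 37 libraries in all, and the others were not used here. The table holds raw counts per gene, deposited by the authors. Per the submitters' processing notes, Trim Galore, cutadapt and FastQC were used with GRCm38 (mm10); which aligner, counter and strand setting were used is not given in the sources used here. Among its columns 1 matched no sample and was not used. Ensembl identifiers were given symbols, exon lengths and coordinates from GENCODE M21 (GRCm38). Sample names in the table header matched the sample labels.

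Counts were scaled by TMM and tested with edgeR 4.0.16 (quasi-likelihood F test, robust, R 4.3.3) in 1 model of the 4 genotypes (17 residual degrees of freedom), after a filter (minimum count 10, total 15) that left 21248 genes. P-values were adjusted over all of these by Benjamini-Hochberg, and a call is an adjusted p under 0.05. Errors of fold changes are the log2 fold change divided by the square root of F. Log2 CPM used a prior count of 2. On simulated counts for TMEM106B-/- against WT over 21248 genes, 97% of 3-fold and 63% of 1.5-fold changes were recovered. Recovery for the 10 genes by themselves was not tested. Their biological coefficient of variation, 0.319 to 0.512, lay above the median of 0.105 over all genes tested. The alternatives were DESeq2 1.42.0, RLE scaling, no filter, a fit of just 2 groups, a block of replicate numbers, and each library left out; leaving out both libraries that stood apart, the contrast over both backgrounds and the ratio tests were added after the data were seen. Fold changes of the 10 are printed for an unadjusted p under 0.05 and as a range otherwise. Among 45 pairs of libraries of 1 genotype none agreed within sampling noise. The members and marker lists were chosen with earlier results of these data known. Named genes outside the 10 are the 10 most alike by r, and up to 4 per list and comparison with the smallest adjusted p. Depth was 28.8 to 46.3 M counts (M, 1000000), so that a gene at 1 CPM has about 28.8 to 46.3 counts.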

Additional observations from a re-analysis of the deposited data

Results flagged for a closer look

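Of 40 groups (10 genes in 4 genotypes), 1 held a library far from the others by Dixon's test at the 95% level. Bmp6 was 1.70 CPM in WT replicate 1, against 4.68 to 5.79 CPM in the other 4 WT libraries. The test used log2 CPM, on which these values were 0.81 against 2.24 to 2.55. On that scale the gap to the nearest library was 0.825 of the group's range (critical value 0.71). Chance alone marks about 1 in 20 such groups. The same library was the lowest of WT for every one of the 10 genes. In TMEM106B-/- against WT 2 of the 10 were called without it, with 4.17% of all genes, against 7 with it, with 5.16%.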

How the results depend on the processing

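Fold changes with an unadjusted p under 0.05, and those of Lum against WT and over both backgrounds, were recomputed 1016 times: 909 kept direction and side of the threshold, 74 lost the call, 32 gained it and 1 reversed, Lum in TMEM106B-/- against WT, which ran from -0.0034 to 0.44 with single libraries left out. Of 854 recomputed values of the other fold changes, given only as ranges, 38 changed sign. In TMEM106B-/- against WT the 7 calls were 9 with DESeq2 (6.96% of all genes called), 2 with no filter (2.13%) and 4 with the replicate block (3.99%). The block kept Ptgds, Bmp6 and Slc6a13 of the 7 and added Igf2 (edgeR adjusted p = 0.0353). The calls were 1 with only the compared groups fitted (4.11%) and 1 to 9 with single libraries left out (3.1% to 6.49%). In the combined genotype against WT the 3 calls were 8 with DESeq2 (7.58% of all genes called). They were 2 with the replicate block (3.27%) and 1 to 7 with single libraries left out (1.96% to 7.17%). In the combined genotype against TDP-43Q331K the 0 calls were 1 with DESeq2 (3.91% of all genes called). They were 2 without the pair of libraries that stood apart (1.63%) and 0 to 1 with single libraries left out (0.25% to 5.15%). The test of any genotype gave 5 (5.9% of all genes called), and 9 with DESeq2, 2 with no filter, 2 with the replicate block, 8 without that pair and 2 to 9 with single libraries left out. The share of all genes is not given for each of these alternatives, which called 811 to 2119 genes. How far their counts follow that share cannot be read here. The 45 correlated pairs were 37 with the replicate block and 43 to 45 with single libraries left out. Over all genes tested, calls in TMEM106B-/- against WT numbered 1097 (664 to 1479 over the alternatives), in the combined genotype against WT 1038 (422 to 1610) and against TDP-43Q331K 298 (53 to 1103). The test of any genotype called 1254 of all genes (811 to 2119). The deviations of same-numbered libraries of different genotypes had r of -0.20 to 0.16 (30 pairs, 2 over 0.1). Libraries with different numbers were not compared, so these values cannot decide whether the numbers pair the samples. With no filter more genes are tested. Lum and Igf2 had as few as 18 and 12 counts in a library, which limits their precision.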
